A study of Homo sapiens with 4 samples.

Results

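The cytosolic ribosomal protein genes were described in NCI-H520, an established line of lung squamous carcinoma cells. They were taken from the deposited count table by symbol, as RPL or RPS followed by digits and at most 1 trailing A or X, together with RPLP0, RPLP1, RPLP2 and RPSA. The rule found 77 of 28277 genes, 46 coding for the large and 31 for the small subunit. FAU, which codes for a ribosomal protein fused to a ubiquitin-like protein, has a symbol outside the rule. RNA sequencing compared cells given 10 µM Hx1R8 for 12 h (2 libraries, Hx1R8 replicates 1 and 2) with cells given ultrapure water (2 libraries, Vehicle replicates 1 and 2), and all cells had the genotype WT. The series is about the transcription factor SOX2, which associates with itself in squamous lung tumour cells, and about resistance to chemotherapy. The sources used here do not give the composition of Hx1R8, and a single cell line limits the comparison to that line.

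Each ribosome carries a single copy of nearly every ribosomal protein, bound to ribosomal RNA in a large or a small subunit, so the cell makes the proteins in matched amounts. Their messenger RNAs are short and abundant and typically start with a run of pyrimidines, the 5′ terminal oligopyrimidine (TOP) tract, through which mTORC1 signalling and LARP1 control their translation and stability together. Fast-growing tumour cells spend a large part of their transcription and translation on these genes.

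Start sites of the genes with the shortest coding sequences are shown first, because several of them differed most between the libraries, as described below. Each window, from the RefSeq promoter table on GRCh38.p14, holds 30 bases before and 20 bases from the annotated start on the coding strand, and the capitals mark the unbroken run of C and T letters that covers the annotated first base.
RPL41, chr12:56116603-56116652, plus strand: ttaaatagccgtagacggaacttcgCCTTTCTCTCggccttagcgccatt
RPL39, chrX:119791611-119791660, minus strand: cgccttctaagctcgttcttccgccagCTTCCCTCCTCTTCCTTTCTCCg
RPS29, chr14:49598691-49598740, minus strand: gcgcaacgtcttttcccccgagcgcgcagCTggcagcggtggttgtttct
RPS28, chr19:8321466-8321515, plus strand: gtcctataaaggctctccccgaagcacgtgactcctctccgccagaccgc
RPL38, chr17:74203648-74203697, plus strand: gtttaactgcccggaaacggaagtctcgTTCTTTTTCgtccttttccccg
RPS21, chr20:62387073-62387122, plus strand: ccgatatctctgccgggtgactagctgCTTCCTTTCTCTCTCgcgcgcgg
RPS27, chr1:153990732-153990781, plus strand: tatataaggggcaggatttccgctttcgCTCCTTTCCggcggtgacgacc
RPL37A, chr2:216498814-216498863, plus strand: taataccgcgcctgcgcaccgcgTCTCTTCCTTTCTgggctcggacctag
Of the 77 genes, 62 were in the promoter table, and 49 of these (79.0%) had a run of at least 5 C or T letters over the annotated first base, against 3258 of 27305 genes in the whole table (11.9%). The median run was 11 letters in the ribosomal protein genes and 0 in all genes. RPS29 had a run of 2 letters and RPS28 a run of 0 at the annotated base, which describes these letters at the annotated position only.

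Library totals were 17259403 and 20920857 counts for Hx1R8 replicates 1 and 2, and 17483349 and 17352323 counts for Vehicle replicates 1 and 2. Levels are given as CPM, a gene's count scaled to a library total of 1000000 counts, with trimmed-mean factors between 0.998 and 1.002. SOX2 stood at 522 and 498 CPM in Hx1R8 libraries, against 541 and 515 CPM in Vehicle libraries. Of the other squamous markers, KRT6A stood between 17.1 and 19.9 CPM, KRT5 between 1.16 and 1.91 CPM and TP63 between 0.40 and 0.72 CPM. KRT14 and DSG3 were at 0 counts in all 4 libraries. The 5 immune markers summed to 1.51 and 2.15 CPM in Hx1R8 libraries and 2.51 and 2.43 CPM in Vehicle libraries, and PTPRC and CD3E were at 0. The 2 Vehicle libraries differed from each other more than any other pair did (chi-square per gene 2.95, against 1.48 to 2.43 for the other pairs).

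Ribosomal protein genes took 3.91% of the counts in Hx1R8 replicate 1 (95% Clopper-Pearson interval 3.90 to 3.91%) and 3.74% in Hx1R8 replicate 2 (3.74 to 3.75%), against 3.90% in Vehicle replicate 1 (3.89 to 3.91%) and 3.96% in Vehicle replicate 2 (3.95 to 3.97%). Hx1R8 replicate 2 was the lowest of the 4 libraries, while Hx1R8 replicate 1 lay between the Vehicle libraries, so the groups overlapped. The mean share was 3.82 ± 0.114% with Hx1R8 and 3.93 ± 0.0411% with Vehicle (SD, n = 2 each), and the difference of -0.104 percentage points did not exceed the spread in a two-sided exact permutation test (p = 0.667, where 0.333 is the smallest p that 2 against 2 can give). The intervals cover counting error only, since reads without molecular identifiers are not independent molecules. In bulk RNA, a change in the mix of cells and a change of RNA per cell cannot be told apart.

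Levels per kilobase of the exon length listed in the table spanned a wide range. Near the top stood RPLP0, the base of the large subunit stalk, with a mean of 1744 CPM per kilobase over the 4 libraries, and RPS2, which lies at the mRNA entry channel, with 1665 CPM per kilobase. At the low end stood RPS10 with 3.18, RPS29 with 6.96 and RPL17 with 15.1 CPM per kilobase. The value of RPS29, whose mean was 52.3 CPM, comes from division by a listed length of 7513 bases. Its shortest principal transcript in GENCODE release 29 has 296 bases. For RPS10 and RPL17 the table gives less room to count, as 40.0% and 47.6% of their exon bases were shared with no other listed gene, the rest overlapping RPS10-NUDT3 in RPS10 and RPL17-C18orf32 and SNORD58B in RPL17. RPL38 had 42.4% of such bases because of MGC16275, and reads on shared bases may have been dropped or split, which was not tested.

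RPL36A, the lowest of the 77 genes, had 8 and 10 counts in Hx1R8 libraries and 12 and 8 counts in Vehicle libraries and did not pass the low-count filter, so 76 of the 77 genes were tested. Its exon bases were 56.2% unshared, with RPL36A-HNRNPH2 on the rest. Its paralogue RPL36AL, which is outside the rule, held 36.8 and 34.6 CPM in Hx1R8 libraries and 39.9 and 35.8 CPM in Vehicle libraries. Another 32 rows were named as ribosomal protein pseudogenes, and together they held 3967 and 4716 counts in Hx1R8 libraries and 4056 and 3975 counts in Vehicle libraries. How reads that match both a gene and its pseudogene copies were counted is unknown from these sources, so the levels of genes with such copies are uncertain.

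No ribosomal protein gene passed the test of Hx1R8 against Vehicle. By edgeR's quasi-likelihood test with Benjamini-Hochberg adjustment over 14482 genes, 0 of 76 genes were called at a threshold of 0.05, where 0.0207% of all tested genes were called (0.0138% higher and 0.00691% lower). DESeq2 and limma-voom also called 0 of the 76. At an unadjusted p below that threshold there were 7 genes, all lower with Hx1R8 (9.21%, against 3.39% of all tested genes in either direction, 1.59% higher and 1.8% lower). That number depended on the processing: it was 3 to 4 under the other normalization factors, 1 by DESeq2, 10 with the replicate block and 3 to 30 when a library was left out. The median log2 fold change over the 76 genes was -0.04, with a range of -0.22 to 0.09, and it was below 0 in 63 genes (82.9%, against 51.1% of all tested genes, whose median was -0.0018). In 15 genes (19.7%, against a background of 15.2%) both Hx1R8 libraries lay below both Vehicle libraries, and in 0 genes did they lie above (background 14.7%). The 95% interval of the fold change lay within 1.2-fold in either direction for 69 of the 76 genes and within 1.5-fold for all 76. Among 6323 other genes above 32 CPM, it lay within 1.2-fold for 6215 and within 1.5-fold for all. By subunit, the median log2 fold change was -0.04 in 45 large subunit genes and -0.05 in 31 small subunit genes.

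**Figure D1:**
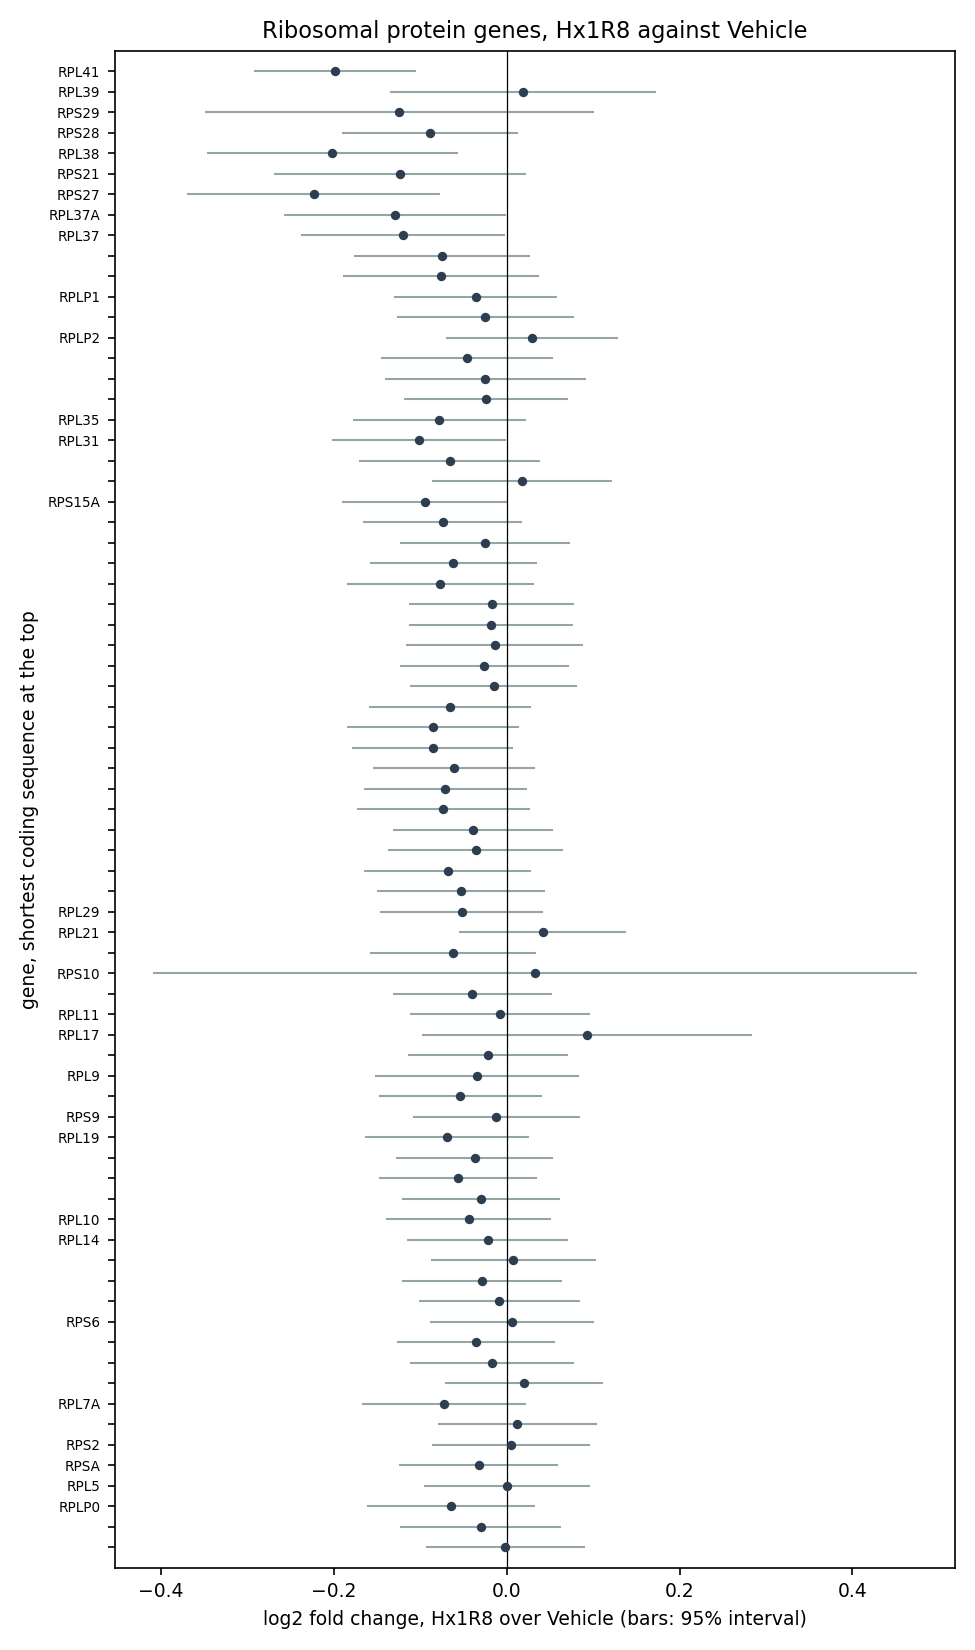
Log2 fold change of Hx1R8 over Vehicle for 73 of the 76 tested ribosomal protein genes, ordered from the shortest coding sequence at the top to the longest at the bottom; points are edgeR estimates, bars 95% intervals, and the genes described in the text carry labels. RPL41, RPL38 and RPS27 near the top are the lowest, at -0.20, -0.20 and -0.22, and most points lie slightly left of 0.

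The direction of that median rested on a single library. Without Hx1R8 replicate 2 the median log2 fold change was 0.0021 and 37 of 77 genes were below 0, whereas without Hx1R8 replicate 1 it was -0.083 and 69 of 77 were below 0. Described apart, each library's log2 CPM was set against the mean of the 4 libraries, gene by gene. The median deviation of the 76 genes was 0.03 in Hx1R8 replicate 1 and -0.06 in Hx1R8 replicate 2, against 0.02 in Vehicle replicate 1 and 0.04 in Vehicle replicate 2. All tested genes had medians of 0.00 in each of the 4 libraries, with 48.3 to 49.8% of genes below 0.

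Hx1R8 replicate 2 thus held nearly all genes slightly low. In it 68 of 76 genes lay below 0, against 25 in Hx1R8 replicate 1, 27 in Vehicle replicate 1 and 19 in Vehicle replicate 2. It was the lowest of the 4 libraries in 58 of 76 genes (76.3%), where it was the lowest in 21.8% of all tested genes. The median counting SD of a deviation was 0.015, and 60 of 76 genes lay beyond 2 such SD in Hx1R8 replicate 2, as did 42 in Hx1R8 replicate 1, 39 in Vehicle replicate 1 and 49 in Vehicle replicate 2. Counting error is not the whole spread between libraries, which exceeded it over all genes in every pair. The number beyond 2 counting SD was not taken over all tested genes, so it does not set the ribosomal protein genes apart. Members of a library share its RNA sample, preparation and sequencing, and so are not replicates of each other.

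Within the ribosomal protein genes the deviations did not follow the listed exon length. Across the 76 genes the slope of the deviation per doubling of that length was 0.00284 in Hx1R8 replicate 1 (Pearson r 0.05, Spearman rho -0.02) and -0.00414 in Hx1R8 replicate 2 (r -0.05, rho 0.05), against -0.00534 in Vehicle replicate 1 (r -0.11, rho -0.15) and 0.00664 in Vehicle replicate 2 (r 0.14, rho 0.09). Over all 14482 tested genes the steepest of the 4 slopes was 0.00754, in Hx1R8 replicate 2 (r 0.06). Among 6323 other genes above 32 CPM the slope in that library was 0.00876, with a closer relation (r 0.21, rho 0.18). In those genes r was -0.03 in Hx1R8 replicate 1, and -0.06 and -0.07 in Vehicle replicates 1 and 2. Within the 76 genes only the lowest class stood apart, with a median of -0.11 in Hx1R8 replicate 2 for the 5 genes listed with at most 500 bases, against medians of -0.07 to -0.04 in the 6 longer classes. Among other genes above 32 CPM, the 15 listed with at most 500 bases had a median of -0.12 in that library. The mean slope was -0.00065 with Hx1R8 and 0.00065 with Vehicle, a difference of -0.0013 that did not exceed the spread between libraries (two-sided exact permutation p = 1).

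**Figure D2:**
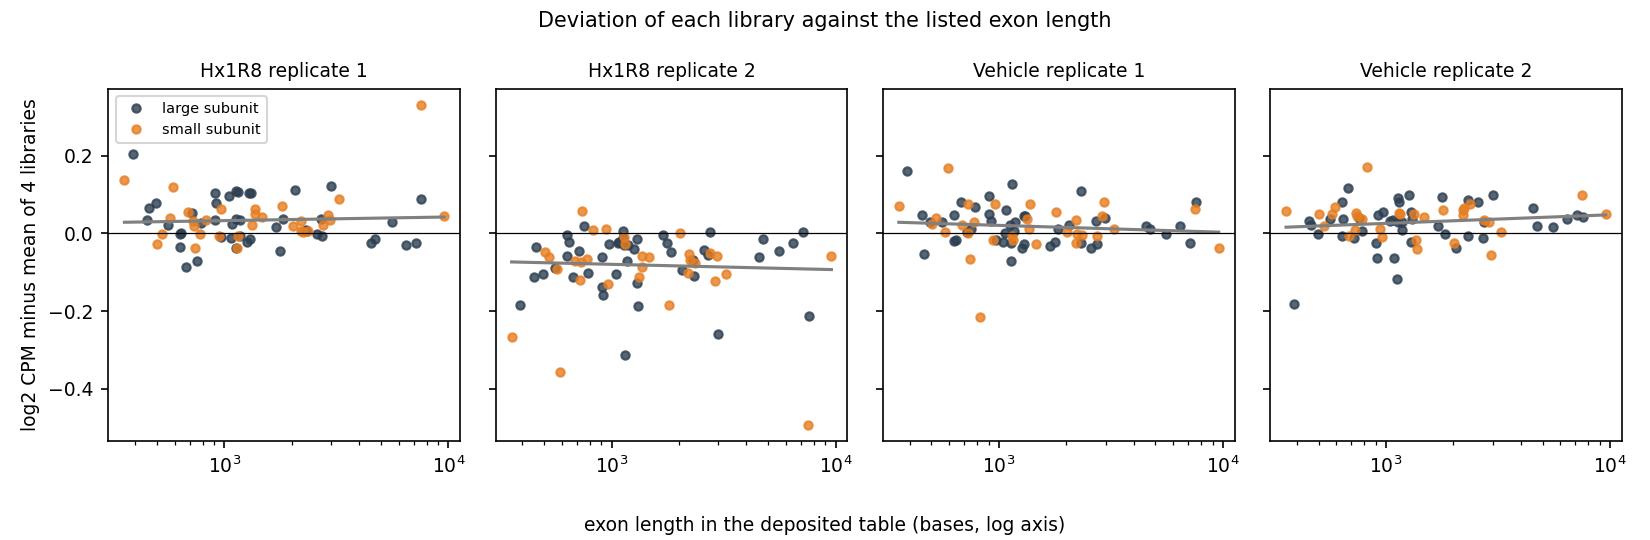
Deviation of each library from the mean of the 4 libraries (log2 CPM, vertical) against the exon length listed in the deposited table (bases, log axis) for the 76 tested ribosomal protein genes, with least-squares lines; dark points are large and orange points small subunit genes. The lines are near flat in all 4 panels, and RPS29, listed with 7513 bases, lies at 0.33 in Hx1R8 replicate 1 and at -0.49 in Hx1R8 replicate 2.

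The listed length is a poor guide to the length of these messenger RNAs. It is the union of all exon bases of a gene in the annotation, including rare long ends and copies of the gene on alternate sequences, and it exceeded the shortest principal transcript of GENCODE release 29 by over 2-fold in 22 of the 77 genes and by over 5-fold in 6. The shortest principal transcript is itself long for some genes, with 7686 bases in RPL37, whose coding sequence has 291. In RPLP2 it has 637 bases, more than the 462 listed. RPS29 was listed with 7513 bases, while its shortest principal transcript has 296 bases and its coding sequence 168. RPS9, the member with the greatest listed length, had 9582 bases, of which 958 lie on the primary chromosomes and the rest on 9 copies elsewhere. RPS18, RPL7A and RPS25 were likewise listed with copies outside the primary chromosomes. Across the 76 tested genes the log2 of the listed length and of the coding length were only loosely related (r 0.13, rho 0.13).

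Against the coding length the libraries separated. Per doubling of the coding length the deviation had a slope of -0.039 in Hx1R8 replicate 1 (r -0.42, rho -0.46) and of 0.086 in Hx1R8 replicate 2 (r 0.65, rho 0.71), against -0.042 in Vehicle replicate 1 (r -0.52, rho -0.58) and -0.0043 in Vehicle replicate 2 (r -0.06, rho -0.09), all over 76 genes that share these libraries. The 4 deviations of a gene sum to 0, so a slope in a single library bears on the slopes of the others. With Hx1R8 replicate 2 left out, the slopes were -0.010 in Hx1R8 replicate 1, against -0.014 in Vehicle replicate 1 and 0.024 in Vehicle replicate 2. Without the 3 shortest coding sequences (RPL41, RPL39 and RPS29) the slope in Hx1R8 replicate 2 was 0.092. The mean slope was 0.023 with Hx1R8 and -0.023 with Vehicle, and this difference of 0.047 did not exceed the spread between libraries (two-sided exact permutation p = 0.667); without Hx1R8 replicate 2 the difference was -0.016.

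**Figure D3:**
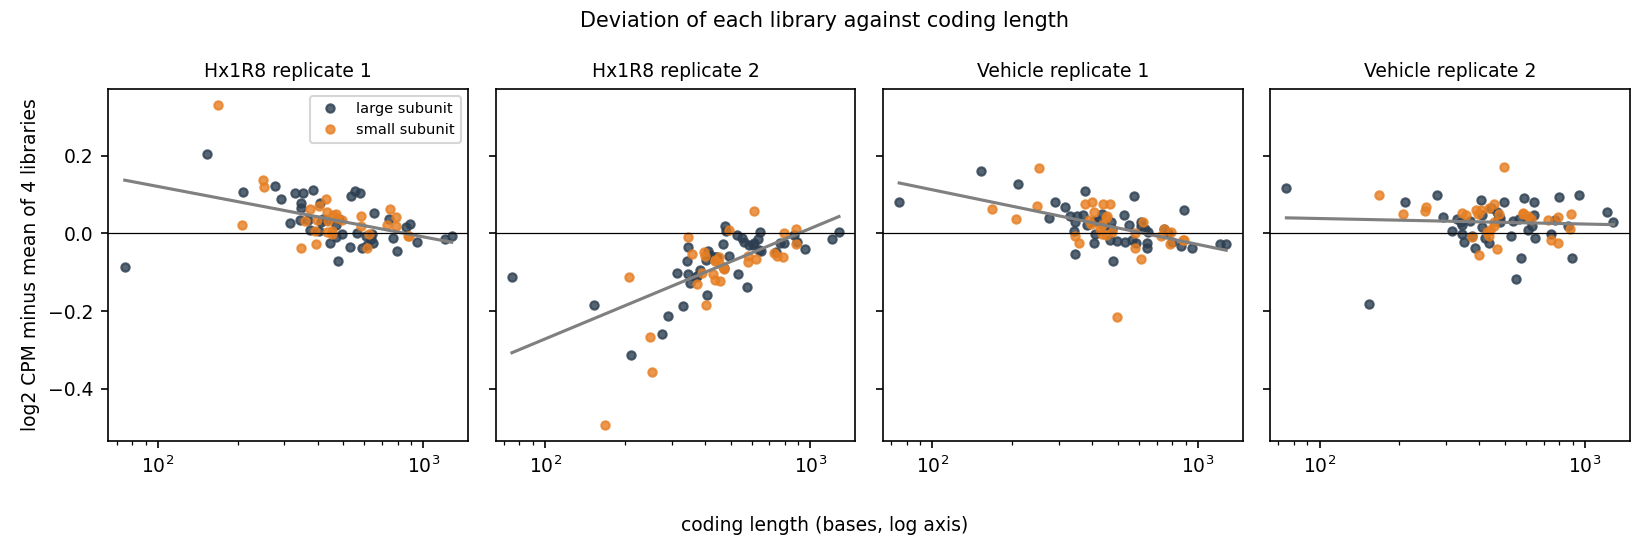
The same deviations against the coding length (bases, log axis), 1 panel per library, with least-squares lines. In Hx1R8 replicate 2 the points climb with coding length, from -0.49 for RPS29 to near 0 for genes above 900 bases, whereas Vehicle replicate 2 is flat at a slope of -0.0043.

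By class of coding length, the median deviation in Hx1R8 replicate 2 was -0.26 for the 9 genes of at most 300 bases, -0.10 for 15 genes up to 400 bases, -0.07 for 22 genes up to 500 bases, -0.03 for 15 genes up to 650 bases, -0.03 for 12 genes up to 900 bases and -0.02 for 3 genes above. Other genes above 32 CPM in the same classes had medians between -0.02 and 0.00 in that library (105 genes in the shortest and 4853 in the longest class). Over all 13031 tested genes with a coding length the slope was 0.00811 in Hx1R8 replicate 2. Among 6265 other genes above 32 CPM it was 0.0083 in that library (r 0.22, rho 0.20) and -0.0014 in Hx1R8 replicate 1 (r -0.04). In the same genes it was -0.0089 in Vehicle replicate 1 (r -0.19) and 0.0021 in Vehicle replicate 2 (r 0.04). A weaker slope of the same sign in Hx1R8 replicate 2 was thus also seen outside the ribosomal protein genes. These medians and slopes are set side by side without a test. GC content of the transcript moved with the deviations as well. In the ribosomal protein genes r was -0.41 and 0.28 in Hx1R8 replicates 1 and 2, and -0.25 and 0.27 in Vehicle replicates 1 and 2. Among 6265 other genes above 32 CPM it was -0.21 and -0.14 in Hx1R8 replicates 1 and 2, and -0.39 and 0.57 in Vehicle replicates 1 and 2. The sign thus differed between the sets in Hx1R8 replicate 2. The part of GC content or RNA quality in the shifts was not tested.

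**Figure D4:**
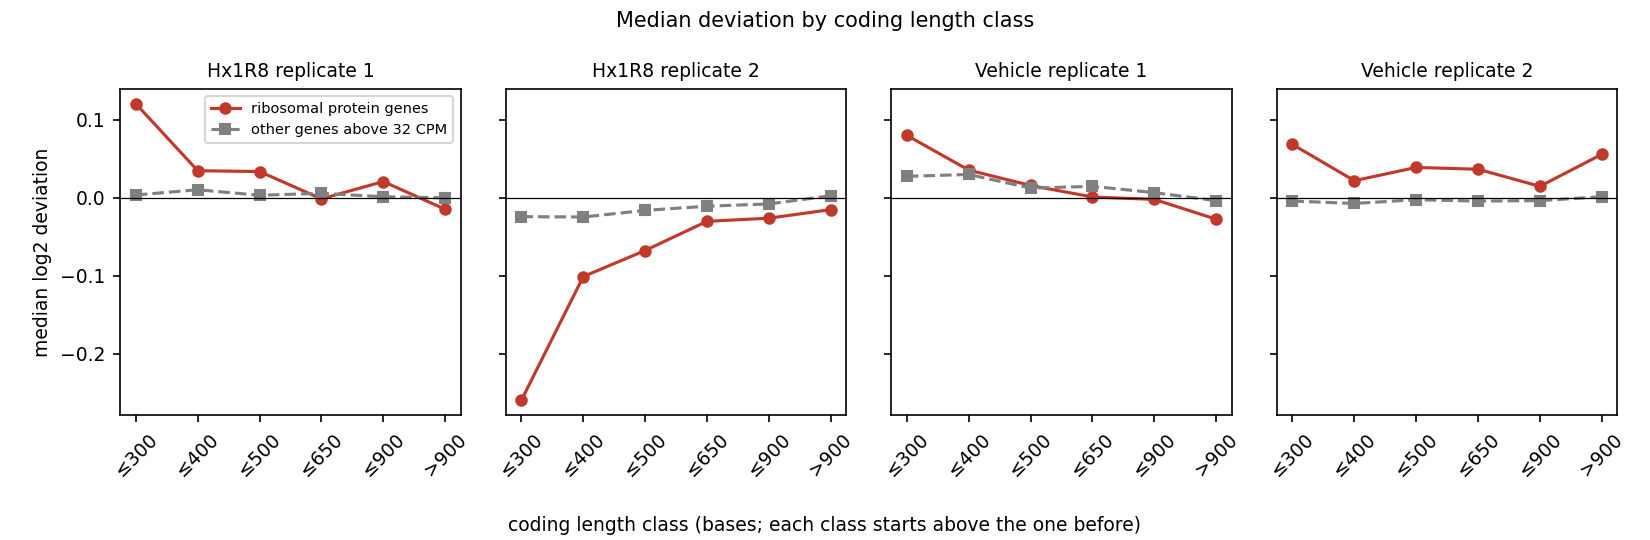
Median log2 deviation by class of coding length (bases), 1 panel per library, for ribosomal protein genes (red circles) and other genes above 32 CPM (grey squares). The shortest class of ribosomal protein genes lies at 0.12 in Hx1R8 replicate 1 and -0.26 in Hx1R8 replicate 2, against 0.08 and 0.07 in Vehicle replicates 1 and 2, while the other genes stay within 0.03 of 0 in all panels.

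The 9 genes with coding sequences of at most 300 bases together held 0.158% and 0.127% of counts in Hx1R8 libraries, against 0.158% and 0.154% in Vehicle libraries. All 9 were below their own 4-library mean in Hx1R8 replicate 2, while 8 were above it in Hx1R8 replicate 1, 9 in Vehicle replicate 1 and 8 in Vehicle replicate 2. Of 105 other genes above 32 CPM with coding sequences this short, 71 were below their mean in Hx1R8 replicate 2 and 50 in Hx1R8 replicate 1. In Vehicle replicates 1 and 2 it was 32 and 54 of these 105. The 9 ribosomal protein genes code for small, basic proteins, several of them zinc-binding, that fill gaps between segments of ribosomal RNA.

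RPL41 codes for the smallest ribosomal protein, with a coding sequence of 75 bases. It had 252 and 248 CPM in Hx1R8 libraries, against 283 and 291 CPM in Vehicle libraries. Both Hx1R8 libraries were low by a similar amount and the groups did not overlap. Its log2 fold change was -0.20 ± 0.05 (SE), and the adjusted p was 0.25 in edgeR's quasi-likelihood test, the smallest adjusted p among the 76 genes. With each library left out in turn the log2 fold change stayed between -0.22 and -0.18.

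RPS27, a zinc-binding protein of the small subunit, had 206 and 148 CPM in Hx1R8 libraries, against 213 and 199 CPM in Vehicle libraries. Only Hx1R8 replicate 2 stood low, and Hx1R8 replicate 1 lay between the Vehicle libraries. The log2 fold change was -0.22 ± 0.07 (SE), with an adjusted p of 0.9999 by edgeR. RPL38, which in mice is needed for translation of a subset of Hox mRNAs, had 90.6 and 67.7 CPM with Hx1R8, against 91.9 and 89.0 CPM with Vehicle. Here too Hx1R8 replicate 2 alone was low, and the log2 fold change was -0.20 ± 0.07 (SE), with an adjusted p of 0.9999 by edgeR. Without Hx1R8 replicate 2 the log2 fold changes were 0.00 for both RPS27 and RPL38.

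RPS29, a zinc-binding protein in the head of the small subunit, differed most between libraries. It had 64.5 and 36.4 CPM in Hx1R8 libraries, against 53.5 and 54.9 CPM in Vehicle libraries. The Hx1R8 libraries lay on either side of the Vehicle libraries, and the highest library exceeded the lowest by 1.77-fold. Its log2 fold change was -0.12 ± 0.11 (SE) in the full comparison, -0.57 without Hx1R8 replicate 1 and 0.25 without Hx1R8 replicate 2.

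RPL39, which lines the exit tunnel of the growing peptide, had 187 and 143 CPM in Hx1R8 libraries, against 181 and 143 CPM in Vehicle libraries. In both groups replicate 1 was high and replicate 2 low, so the log2 fold change was 0.02 ± 0.08 (SE). It was 0.20 without Vehicle replicate 1, where the adjusted p of edgeR's quasi-likelihood test was 0.00619, and -0.18 without Hx1R8 replicate 1. RPS21 had 80.3 and 60.8 CPM with Hx1R8, against 76.8 and 76.0 CPM with Vehicle, again with Hx1R8 replicate 2 alone low. RPL37A, a zinc-binding protein of the large subunit, had 325 and 249 CPM with Hx1R8, against 307 and 320 CPM with Vehicle (log2 fold change -0.13 ± 0.06, SE). RPL37, which also binds zinc, had 216 and 175 CPM with Hx1R8, against 215 and 209 CPM with Vehicle (log2 fold change -0.12 ± 0.06, SE). In both genes Hx1R8 replicate 1 was the highest of the 4 libraries and Hx1R8 replicate 2 the lowest. RPS28, at the mRNA exit, was the steadiest of these small genes, with 158 and 144 CPM in Hx1R8 libraries and 159 and 161 CPM in Vehicle libraries, and its groups did not overlap, by a narrow margin.

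**Figure D5:**
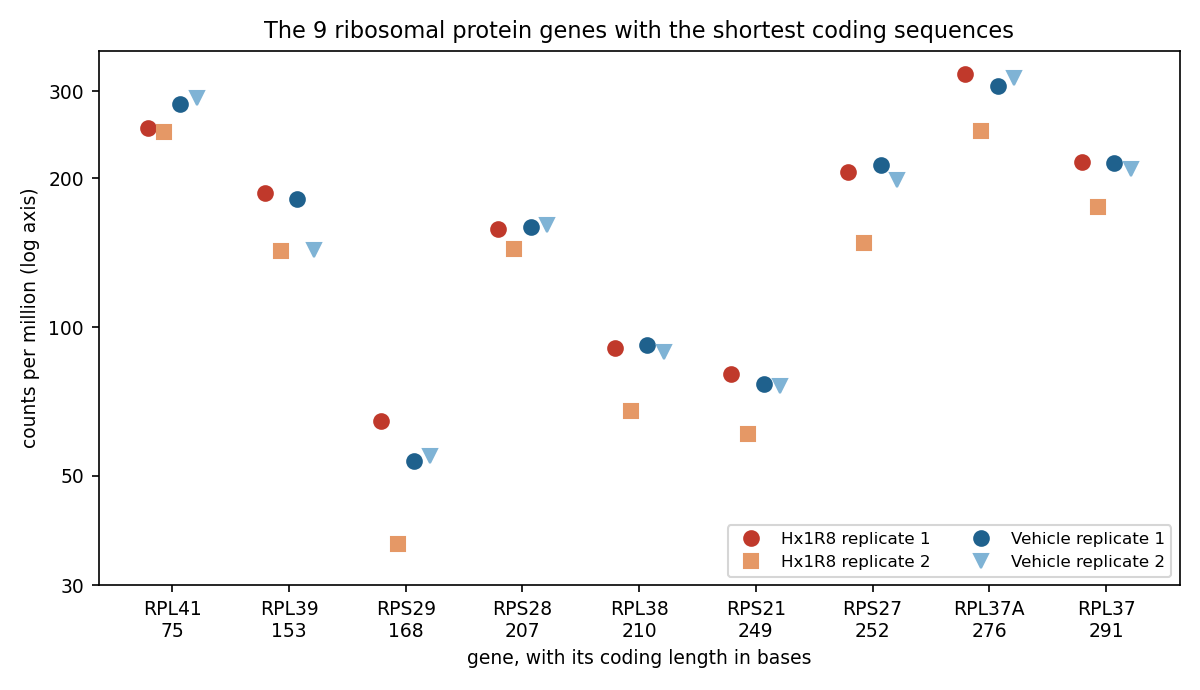
CPM (log axis) of the 9 ribosomal protein genes with the shortest coding sequences in each library, ordered by coding length; red and orange marks are Hx1R8 replicates 1 and 2, dark and light blue marks Vehicle replicates 1 and 2. Hx1R8 replicate 2 is the lowest mark for every gene (RPS29 36.4 CPM, RPS27 148 CPM), narrowly so for RPL41 (248 CPM) and RPL39 (143 CPM).

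Leaving out single libraries brought some of these genes past the threshold. Without Hx1R8 replicate 1, edgeR called 3 ribosomal protein genes lower and 0 higher (against 0.0336% and 0.0134% of all tested genes): RPS29 at -0.57 (adjusted p 7.35e-06), RPS27 at -0.47 (adjusted p 2.99e-05) and RPL38 at -0.42 (adjusted p 0.00417). They were 3 of the 5 genes called lower in that comparison. Without Hx1R8 replicate 2 it called 0 of 77, with 3 at an unadjusted p below 0.05, against 0.00677% lower and 0.0338% higher among all tested genes. Without Vehicle replicate 1 it called 6 lower (RPLP0, RPL19, RPL37A, RPS27, RPL7A and RPL41, against 0.257% of all tested genes) and RPL39 higher (against 0.277%). Without Vehicle replicate 2 it called RPL31, RPL38, RPS27 and RPL41 lower, against 0.121% of all tested genes, and 0 higher, against 0.0874%. A group of 1 library was assumed to vary like the other group in these fits.

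The acidic stalk proteins recruit elongation factors to the large subunit. RPLP0, which anchors the stalk, had 2170 and 2143 CPM in Hx1R8 libraries, against 2148 and 2361 CPM in Vehicle libraries. Vehicle replicate 2 was high and the other 3 libraries were close together, so the groups overlapped. Its log2 fold change was -0.06 ± 0.05 (SE), and 0.01 without Vehicle replicate 2. RPLP1 had 552 and 512 CPM with Hx1R8, against 541 and 549 CPM with Vehicle. RPLP2 had 212 and 197 CPM with Hx1R8, against 195 and 205 CPM with Vehicle, and the groups overlapped for both.

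RPL5 and RPL11 bind 5S ribosomal RNA and, when ribosome assembly stalls, hold MDM2 so that p53 accumulates. RPL5 had 597 and 578 CPM in Hx1R8 libraries, against 612 and 562 CPM in Vehicle libraries, with a log2 fold change of 0.00 ± 0.05 (SE). RPL11 had 355 and 309 CPM in Hx1R8 libraries, against 327 and 340 CPM in Vehicle libraries, with a log2 fold change of -0.01 ± 0.05 (SE). The Hx1R8 libraries lay on either side of both Vehicle libraries for RPL11 and between them for RPL5.

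RPL31, RPL19, RPL35 and RPL17 lie around the rim of the exit tunnel. RPL31 had 291 and 268 CPM in Hx1R8 libraries, against 312 and 288 CPM in Vehicle libraries, so the groups overlapped, and its log2 fold change was -0.10 ± 0.05 (SE). RPL19 had 837 and 841 CPM with Hx1R8, against 845 and 916 CPM with Vehicle, and RPL35 had 225 and 203 CPM with Hx1R8, against 227 and 225 CPM with Vehicle. For RPL19 both Hx1R8 libraries lay below both Vehicle libraries, the closest by a narrow margin, while the groups overlapped for RPL35. RPL17, the largest positive value at 0.09 ± 0.09 (SE), had 18.3 and 16.8 CPM with Hx1R8 and 17.2 and 15.6 CPM with Vehicle.

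Small subunit proteins of the mRNA path and of signalling were similarly flat. RPS2, at the mRNA entry, had 1567 and 1586 CPM in Hx1R8 libraries, against 1556 and 1586 CPM in Vehicle libraries, the narrowest spread of these genes with a highest to lowest ratio of 1.02. RPS6, the substrate of S6 kinase downstream of mTORC1, had 945 and 869 CPM in Hx1R8 libraries, against 911 and 894 CPM in Vehicle libraries. RPSA, also known as the laminin receptor precursor, had 1007 and 993 CPM with Hx1R8, against 999 and 1047 CPM with Vehicle.

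RPS15A, a small subunit protein, had 339 and 314 CPM with Hx1R8, against 346 and 352 CPM with Vehicle, with both Hx1R8 libraries below. RPL10, which joins the large subunit late and shapes the peptidyl transferase centre, had 963 and 936 CPM with Hx1R8, against 938 and 1020 CPM with Vehicle. RPL7A, the last of the genes called in a comparison without a library, had 786 and 797 CPM with Hx1R8, against 798 and 867 CPM with Vehicle, with Vehicle replicate 2 high and the other 3 libraries close together.

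The remaining genes at the extremes of a library or of listed length moved little between groups. RPL29 had 359 and 382 CPM with Hx1R8, against 380 and 388 CPM with Vehicle, and was the gene lowest in Hx1R8 replicate 1 after RPL41. RPL21, which has listed exons on chromosomes 13 and 10, had 291 and 285 CPM with Hx1R8, against 270 and 290 CPM with Vehicle. RPS9, a protein near the mRNA entry, had 394 and 366 CPM with Hx1R8, against 372 and 394 CPM with Vehicle, and RPL14 had 447 and 456 CPM with Hx1R8, against 447 and 470 CPM with Vehicle. RPS10 had 2.67 and 2.62 CPM with Hx1R8, against 2.23 and 2.95 CPM with Vehicle, so that its Vehicle libraries were at once the lowest and the highest of the 4. RPL9 had 162 and 137 CPM with Hx1R8, against 162 and 145 CPM with Vehicle, so that replicate 1 was high in both groups.

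Other genes of the translation machinery, grouped in lists by function, gave 0 calls in each of the 6 lists below by the same edgeR test, with 1 gene in all at an unadjusted p below 0.05. Over all tested genes 0.0207% were called, 3.39% had such a p and 51.1% were below 0. Of 10 tested genes in a list of ribosomal protein paralogues, ubiquitin fusions and the ribosome-bound scaffold RACK1, 9 were below 0, with a median log2 fold change of -0.03. RPL26L1, a paralogue of RPL26, had 55.6 and 52.0 CPM in Hx1R8 libraries, against 56.3 and 59.8 CPM in Vehicle libraries. Its log2 fold change was -0.11 ± 0.06 (SE) and its groups did not overlap. RPL26L1 was not the gene below 0.05, as its unadjusted p was 0.077 in edgeR's quasi-likelihood test. The 25 other RNAs listed with a TOP tract had a median of 0.00 with 12 below 0. They include GAS5, SNHG1 and EPB41L4A-AS1, which have no coding length. The messenger RNAs among them share the translational control of the ribosomal protein genes and had longer coding sequences (median 1122 bases). Of them EEF1G had 1251 and 1268 CPM with Hx1R8, against 1268 and 1384 CPM with Vehicle. The 12 genes listed as elongation factors, which include the release factors ETF1 and GSPT1, had a median of -0.04, with 7 below 0. The 33 tested initiation factors had a median of 0.03, with 25 above 0, and EIF1B, which takes part in start codon selection, had 30.7 and 26.9 CPM with Hx1R8, against 25.7 and 26.7 CPM with Vehicle. The 48 ribosome biogenesis factors had a median of 0.00 with 21 below 0, and the 24 regulators of TOP translation had a median of -0.01 with 13 below 0.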

How the data were processed

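RNA sequencing of total RNA gave 4 libraries, and the authors deposited raw counts of all 4 in a table with a row per gene. Alignment used STAR 2.7.9 and hg38, per the submitters' processing notes. The counting tool, annotation and strand setting remain not given in the sources used here. After 2 lines of a broken row were left out, the table held 28277 genes.

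The two-sided quasi-likelihood test of edgeR 4.0.16 (R 4.3.3) was run with group as its single term, on genes kept by filterByExpr and with TMM normalization. P-values were adjusted by Benjamini-Hochberg over 14482 genes, at a threshold of 0.05. Deviations used log2 CPM with a prior count of 2. Coding and transcript lengths came from principal transcripts of GENCODE release 29 (the coding length leaves out the stop codon), start sites from RefSeq on GRCh38.p14. On simulated counts for Hx1R8 against Vehicle the test, over 14346 genes, called 44% of 1.2-fold and 93.9% of 2-fold changes. Those counts were drawn independently, with 200 genes set to change and no shift shared by the genes of a library. In the data only 3 genes were called, so these rates may overstate what the test could find here. Nothing in the labels says that replicates were separate cultures, so p-values measure only how far these samples spread, and that spread may be technical.

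Alternatives covered normalization factors, filters, DESeq2 1.42.0, limma-voom (limma 3.58.1), the replicate block, an exon length offset, length measures, and leaving out each library. The members, the gene lists, the tests and the rule for named genes were chosen with earlier results of these data known. The rule took the 8 smallest unadjusted p, the extremes of level, listed length and library deviation, genes called in any alternative, genes with under 50% unshared bases and 11 set by name. RPS28, RPL36A, RPL36AL, RPS18 and RPS25 were named after their values were seen, as were classes of coding length. A few genes are not reported here by name.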

Additional observations from a re-analysis of the deposited data

How the results depend on the processing

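Among ribosomal protein genes 0 were called under every alternative that kept all 4 libraries, and the median log2 fold change stayed between -0.04 and -0.03. Leaving out each library gave a median of -0.083 to 0.0021, with 37 to 69 genes below 0, 0 to 1 called higher and 0 to 6 called lower. Over all genes, 2 were called higher and 1 lower. Leaving out libraries gave 2 to 41 higher and 1 to 38 lower, and 1 was called higher by DESeq2 and by the replicate block with exon length offset. The replicate block alone called 0 ribosomal protein genes at a median of -0.04. Same-numbered libraries correlated at 0.0316 over all tested genes after each group's mean was removed. With 2 libraries per group this is a single value, and it cannot tell whether same-numbered libraries shared a culture or preparation. Leaving out a library moved these genes across 0 on the log2 scale: RPL10 (-0.10 to 0.019), RPL11 (-0.11 to 0.090), RPL14 (-0.057 to 0.016), RPL21 (-0.0081 to 0.094), RPL37 (-0.27 to 0.025), RPL37A (-0.33 to 0.052), RPL38 (-0.42 to 0.0021), RPL39 (-0.18 to 0.21), RPL5 (-0.059 to 0.063), RPL9 (-0.15 to 0.084), RPLP0 (-0.13 to 0.0073), RPLP1 (-0.089 to 0.017), RPLP2 (-0.020 to 0.081), RPS10 (-0.16 to 0.25), RPS2 (-0.0087 to 0.020), RPS21 (-0.33 to 0.073), RPS27 (-0.47 to 0.0013), RPS29 (-0.57 to 0.25), RPS6 (-0.054 to 0.065), RPS9 (-0.063 to 0.039), RPSA (-0.066 to 0.0035). RPL11 was 0.0043 with the exon length offset and 0.0026 with the block added. The slope on length in Hx1R8 replicates 1 and 2 was -0.0067 and 0.011 without the 5 genes of largest listed length, -0.0028 and 0.0028 without the 9 shortest coding sequences, -0.012 and 0.022 on the shortest principal transcript, and -0.039 and 0.086 on coding length, on which it was -0.042 and -0.0043 in Vehicle replicates 1 and 2. Leaving out other libraries gave median deviations of -0.0086 to 0.022 and 0.0091 to 0.040 in Vehicle replicates 1 and 2, and slopes on coding length of -0.055 to -0.014 and -0.018 to 0.024. The difference in slope between groups ranged from -0.0073 to 0.0047 on listed length and from -0.016 to 0.11 on coding length. RPL36A and RPS10 had too few counts for narrow intervals. The cause of these changes was not tested.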

Other observations

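The mitochondrial counterparts of these genes were also described. Of 77 tested mitochondrial ribosomal protein genes, 0 were called by edgeR's quasi-likelihood test, 3 had an unadjusted p below 0.05 (3.90%, against 3.39% of all tested genes), 39 were below 0 (50.6%, against 51.1%) and the median log2 fold change was -0.00. MRPL14 had 19.8 and 18.9 CPM in Hx1R8 libraries, against 21.5 and 25.5 CPM in Vehicle libraries, and MRPL40 had 26.7 and 22.3 CPM with Hx1R8, against 29.03 and 28.3 CPM with Vehicle. In both genes the Hx1R8 libraries lay below the Vehicle libraries, with log2 fold changes of -0.28 ± 0.09 and -0.23 ± 0.08 (SE). Hx1R8 replicate 2 was below Hx1R8 replicate 1 in 56 of the 77 genes, against 7259 of all 14482 tested genes and 66 of the 76 cytosolic ribosomal protein genes.

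Of 80 tested nuclear genes for subunits of oxidative phosphorylation, 0 were called by the same test, 4 had an unadjusted p below 0.05 (5%, against 3.39% of all tested genes; 3 of them lower), 57 were below 0 (71.2%, against 51.1%) and the median was -0.03. ATP5F1E, a subunit of ATP synthase, was the single higher gene of the 4, with 1.68 and 1.19 CPM with Hx1R8, against 0.686 and 0.983 CPM with Vehicle. UQCRQ, a subunit of complex III, had 71.9 and 68.9 CPM with Hx1R8, against 78.5 and 80.2 CPM with Vehicle. COX6B1, a subunit of complex IV, had 79.5 and 75.8 CPM with Hx1R8, against 83.6 and 91.4 CPM with Vehicle. These genes also code for short proteins, and their median deviations were 0.02 and -0.06 in Hx1R8 replicates 1 and 2, against 0.04 and 0.00 in Vehicle replicates 1 and 2.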
